A study of Mus musculus with 10 samples.

Results

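The transcripts described here are 42 genes of fatty acid uptake, activation, mitochondrial oxidation, ketone use and their transcriptional control by peroxisome proliferator-activated receptors (PPARs) and estrogen-related receptors (ERRs). They were chosen by symbol as members of these pathways, and all 42 were found among the 23337 genes in the count files. Each was measured by bulk RNA-Seq in the left ventricle (LV) and the skeletal muscle (SkM) of 5 mice, 2 WT and 3 E0del/+, which gives 10 libraries of 1 mouse and 1 tissue each. The study deleted E0, a conserved element in the first intron of Ttn, with CRISPR/Cas9, and the E0del/+ mice, which bear the name of 1 of 3 lines made, carry 1 deleted and 1 intact copy. The mice were C57BL/6/129SvEv hybrids. An age of 17 weeks is given for LVs of a panel with 5 mice per genotype, so the age of these 5 mice is uncertain, and no treatment is named for them. The labels give a batch number that equals the replicate number, so that batches 1 and 2 hold 1 WT and 1 E0del/+ mouse each and batch 3 holds 1 E0del/+ mouse alone. Mice of both sexes were used, and the sex of each mouse and the muscle sampled as SkM are not given in the sources used here. Total counts ran from 11010021 to 15361520 in LV and from 13892390 to 17484873 in SkM.

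Fatty acids reach muscle cells from circulating triglycerides, which lipoprotein lipase hydrolyses on the endothelium, and cross the membrane with the help of CD36. Inside the cell they are bound by a small carrier protein, joined to coenzyme A, moved into mitochondria as carnitine esters and shortened by beta-oxidation, which passes electrons to the respiratory chain through the electron transfer flavoprotein. PPARs and ERRs, with the coactivators PGC-1α and PGC-1β, are known regulators of these genes, and the heart is known for its high use of fatty acids and ketone bodies.

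Levels are given as CPM, the count of a gene relative to the library's size, with sizes scaled by TMM, a method that assumes that most genes are level between libraries. For each gene the values follow the same order, WT replicates 1 and 2 and then E0del/+ replicates 1, 2 and 3. Fold changes are log2 ratios with their standard error (SE), and adjusted p-values come from the quasi-likelihood test of edgeR after Benjamini-Hochberg adjustment over every gene tested, against a threshold of 0.05.

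Several libraries stood apart from the rest. In the WT LV replicate 2 library, all 9 markers of fast skeletal fibres were high, with a summed level of 33950 CPM against 119 to 147 CPM in the other LV libraries and 179600 to 234800 CPM in SkM. Myh4, the most abundant of them, stood at 15960 CPM in that library and at 50.8 to 66.4 CPM in the other LVs. The same library held 245 CPM of the 6 white adipocyte markers, against 1.73 to 19.6 CPM in the other LVs, and the SkM library of the same mouse held 12.5 CPM. Ventricular markers stood at 58150 to 84610 CPM in LV and 266 to 2591 CPM in SkM, and the 4 atrial markers at 174.6 to 423.4 CPM in LV and 6.79 to 22.0 CPM in SkM, a sum that in LV is mostly Nppa, while Sln of the same list was lower in LV (log2 fold change -2.92). In SkM, the white adipocyte markers, led by Cfd, ran from 12.5 CPM in WT replicate 2 to 1286 CPM in WT replicate 1 and 1502 CPM in E0del/+ replicate 3. The slow fibre markers, led by Myh7, were at 157 CPM in WT SkM replicate 2 and 297 CPM in E0del/+ SkM replicate 3, against 1279 to 2675 CPM in the other SkM libraries. Xist stood at 357 to 574 CPM in both libraries of WT replicate 1 and of E0del/+ replicates 1 and 2 and at 0.476 to 4.20 CPM in those of WT replicate 2 and E0del/+ replicate 3, the 2 mice with the low slow fibre sums, where the Y-linked gene Ddx3y stood at 93.7 to 135 CPM. Ddx3y was at 14.1 CPM in WT SkM replicate 1 beside 448 CPM of Xist, against 0.264 to 0.906 CPM in the other libraries with high Xist. The Y-linked genes Eif2s3y, Kdm5d and Uty were at 5.45, 2.20 and 2.68 CPM in that SkM library, and the cause was not tested. The alpha-globin genes Hba-a1 and Hba-a2 had 0 counts in all 10 libraries. In bulk tissue, fewer cells of a type and less RNA per cell cannot be told apart.

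**Figure D1:**
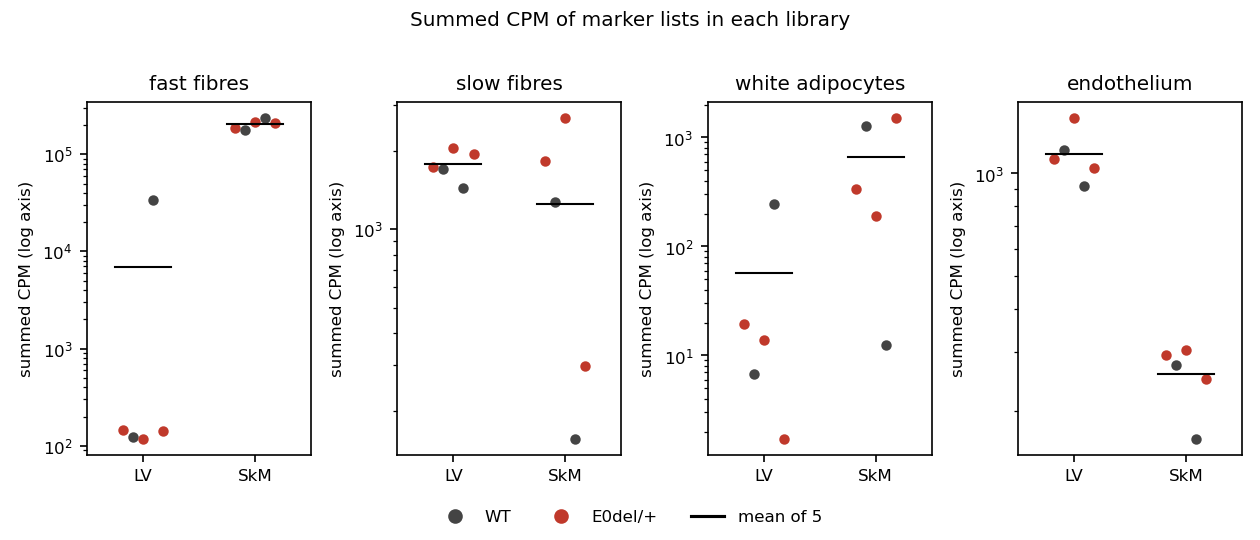
Summed CPM of 4 lists of marker genes (vertical log axis) in the 5 LV and 5 SkM libraries, 1 point per library, WT in grey and E0del/+ in red, with a line at the mean of 5. The WT LV replicate 2 library holds 33950 CPM of fast fibre markers, and the white adipocyte and slow fibre markers are spread widely over the SkM libraries.

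Most of the 42 genes were higher in LV than in SkM of the same mouse. With the mouse as a block, 35 of 42 passed the threshold as higher in LV, where 32.1% of the 14327 genes tested did, and 3 passed as lower, where 27.7% of all genes did (59.8% in either direction). At an unadjusted p under 0.05 there were 38 of 42, against 64.3% of all genes. All 42 passed the filter on low counts. The median log2 fold change was 1.29 over the 42 genes and 0.06 over all genes tested. The lower genes were Ucp3, Pdk2 and Ppard, and those that did not pass were Crat, Mlycd, Pdk4 and Esrra. In 34 of 42 genes every LV library lay above every SkM library, which held for 26.6% of all genes tested, and in 3 every LV library lay below, which held for 23.7%. Counted together, the 42 genes held 2.08% to 2.62% of all counts in LV and 0.533% to 0.6997% in SkM.

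The directions depend on how the tissues are scaled. With library totals in place of TMM, the median of all genes moved from 0.06 to 0.68, a shift of 0.62, and the split of calls over all genes moved from 4601 higher and 3963 lower to 8154 higher and 1706 lower. The median of the 42 genes less that of all genes was 1.23 with TMM and 1.22 with totals, and the same 5 genes, Crat, Ucp3, Pdk2, Pdk4 and Ppard, lay below the median of all genes under both. Of these, Pdk2 and Ppard changed sign with totals, to 0.11 and 0.18, Crat to 0.25 and Pdk4 to 0.33, and Ucp3 kept its sign at -0.97 without passing the threshold. Mlycd and Esrra passed as higher with totals, at 0.69 and 0.75. Without WT replicate 2, the mouse whose LV library holds fast fibre transcripts, 35 of the 42 genes were higher and 3 lower.

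**Figure D2:**
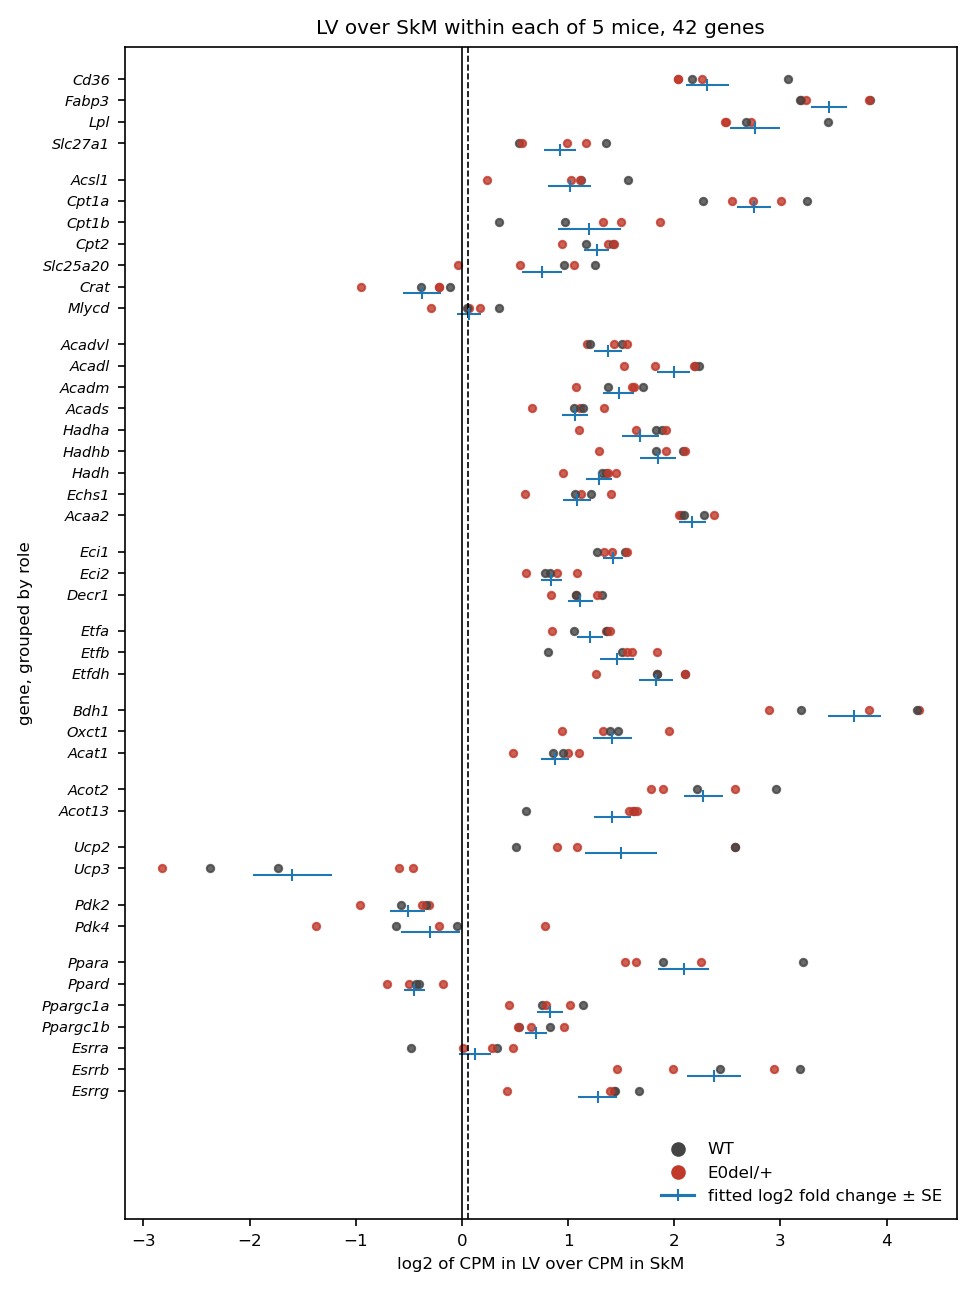
Log2 ratio of CPM in LV over CPM in SkM (horizontal axis) for each of 42 genes grouped by role, with 1 point per mouse, WT in grey and E0del/+ in red, the fitted log2 fold change with its SE in blue, a solid line at 0 and a dashed line at the median of all genes tested, 0.06. Ucp3, Pdk2 and Ppard lie left of 0 in all 5 mice with TMM scaling, and with library totals the fitted values of Pdk2 and Ppard move to the right of it.

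Uptake genes differed most as a group, with all 4 higher in LV and a median of 2.54. Fabp3, the fatty acid binding protein of heart and muscle, stood at 531, 488, 582, 596 and 679.7 CPM in LV and at 37.1, 53.8, 63.4, 63.2 and 47.7 CPM in SkM. Lpl, lipoprotein lipase, stood at 4274, 3356, 4983, 3655 and 4842 CPM in LV and at 669, 307, 757, 649.7 and 872 CPM in SkM. In both genes the tissues did not overlap. The genotypes overlapped for Lpl in both tissues and for Fabp3 in SkM, while in LV both WT values of Fabp3 were below the 3 of E0del/+, and Lpl was lowest in both libraries of WT replicate 2. The log2 fold changes were 3.46 (SE 0.17, adjusted p = 7.21e-06 from edgeR) for Fabp3 and 2.76 (SE 0.23, adjusted p = 5.18e-05) for Lpl, each higher in LV in 5 of 5 mice. Cd36, the fatty acid translocase, ran from 1164 to 1404 CPM in LV and from 140.5 to 343 CPM in SkM, higher in LV by 2.31. Slc27a1, a fatty acid transport protein, ran from 239 to 320.1 CPM in LV and from 93.5 to 175 CPM in SkM, higher by 0.93. All 6 endothelial markers were also higher in LV, with a summed level of 922 to 1453 CPM against 166.5 to 304 CPM in SkM and a median log2 fold change of 2.02. In SkM both Lpl and Cd36 were lowest in WT replicate 2, which also held the lowest endothelial and white adipocyte sums. The part of these cells in the differences of Lpl and Cd36 was not tested.

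Of the 7 genes of activation and the carnitine shuttle, 5 were higher in LV and 2 did not pass. Cpt1a, the carnitine palmitoyltransferase also known from liver, stood at 69.8, 51.4, 76.4, 76.9 and 69.7 CPM in LV and at 14.5, 5.396, 11.4, 9.57 and 11.9 CPM in SkM. Cpt2, which regenerates acyl-CoA inside the mitochondrion, stood at 271, 241, 304, 216 and 312 CPM in LV and at 101, 107, 117, 112 and 116 CPM in SkM. Every LV library lay above every SkM library for both genes, and their log2 fold changes were 2.75 (SE 0.16, adjusted p = 1.19e-05 from edgeR) and 1.27 (SE 0.12, adjusted p = 7.77e-05). Acsl1, the main long-chain acyl-CoA synthetase of heart, was higher in LV by 1.02, and Slc25a20, the carnitine carrier, by 0.76. With TMM, Slc25a20 overlapped between the tissues, with E0del/+ LV replicate 2 at 91.4 CPM, and did not pass without WT replicate 1, at 0.64 (adjusted p = 0.0539 from edgeR). The malonyl-CoA decarboxylase gene Mlycd had a log2 fold change of 0.07 and the carnitine acetyltransferase gene Crat of -0.37, both short of the threshold, and Crat passed as lower with DESeq2's Wald test, at -0.43.

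Cpt1b, the muscle form of carnitine palmitoyltransferase, had few counts. It stood at 2.18, 2.49, 4.34, 4.66 and 4.73 CPM in LV and at 1.71, 1.27, 1.73, 1.28 and 1.68 CPM in SkM, from 15 to 82 counts a library. In the files its exons share 2744 of 2894 bp (94.8%) with BC090627, a second gene at the same place, which had 0 counts in all 10 libraries. Among the 437 genes with at least 90% of their exon length shared with another gene, a limit set after the value of Cpt1b was seen, 413 had 0 counts in every library (94.5%), against 16.2% of all genes. The counts of Cpt1b were small beside the length the files give it, and its level per length was 0.462 RPKM in SkM and 1.85 RPKM in LV (medians), while over the 150 bp that no other gene shares it would be 6.1 to 10.1 RPKM in SkM and 18.4 to 43.6 RPKM in LV. How reads on shared exons were counted is not given in the sources used here, so the level of Cpt1b is uncertain and it is not set against that of Cpt1a. The log2 fold change of 1.20 (SE 0.30, adjusted p = 0.0096 from edgeR) in LV against SkM rests on these counts.

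All 9 enzymes of beta-oxidation were higher in LV, with log2 fold changes between 1.06 for Acads and 2.17 for Acaa2. Acaa2, the last thiolase of the spiral, stood at 673, 630.5, 707, 689.7 and 794 CPM in LV and at 138, 148, 172, 165 and 153 CPM in SkM. Acadl, a long-chain acyl-CoA dehydrogenase, stood at 629.8, 587, 692, 569.5 and 732 CPM in LV and at 134, 128, 196, 197 and 161 CPM in SkM. For both, all LV libraries were above all SkM libraries, with log2 fold changes of 2.17 (SE 0.13, adjusted p = 1.29e-05 from edgeR) and 1.99 (SE 0.16, adjusted p = 3.71e-05). The remaining dehydrogenases Acadvl, Acadm and Acads were higher by 1.38, 1.48 and 1.06. Hadha and Hadhb, the subunits of the trifunctional protein, were higher by 1.68 and 1.85, Hadh by 1.29 and the hydratase Echs1 by 1.08. E0del/+ LV replicate 2 was the lowest LV library for 7 of these 9 genes in CPM, with Hadhb at 819 CPM against 1071 to 1330 CPM in the other 4, and for 4 of the 9 in RPKM, which is scaled by library totals. WT LV replicate 2, the library with skeletal muscle transcripts, was the lowest for 2 of the 9 in CPM and for 5 in RPKM. How often either library was the lowest LV over all genes was not counted. E0del/+ LV replicate 2 also had the largest TMM factor, 1.40, and the highest endothelial sum, 1453 CPM, and the part of either in these values was not tested.

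The 3 auxiliary enzymes of unsaturated fatty acids were all higher in LV. Eci1, an enoyl-CoA isomerase, stood at 158, 153, 183, 183 and 188 CPM in LV and at 54.5, 63.2, 68.7, 72.2 and 63.9 CPM in SkM. Decr1, a dienoyl-CoA reductase, stood at 304, 292, 295, 243 and 341 CPM in LV and at 122, 139, 139.9, 136 and 141 CPM in SkM. The tissues did not overlap in either gene, with log2 fold changes of 1.42 (SE 0.10, adjusted p = 1.97e-05 from edgeR) and 1.12 (SE 0.12, adjusted p = 0.000134), and Eci2, a further isomerase, was higher by 0.84. The 3 genes that carry the electrons onward were higher too. Etfdh, the dehydrogenase that hands electrons to ubiquinone, stood at 506, 465, 528, 361 and 592 CPM in LV and at 118, 130.3, 147, 149.97 and 138 CPM in SkM. Etfb, the beta subunit of the flavoprotein, stood at 281, 228, 315, 366 and 301 CPM in LV and at 98.5, 129.7, 104, 102 and 103 CPM in SkM. LV lay above SkM throughout, by 1.83 (SE 0.16, adjusted p = 5.58e-05 from edgeR) for Etfdh and 1.47 (SE 0.16, adjusted p = 0.000176) for Etfb, and the alpha subunit gene Etfa was higher by 1.21.

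Bdh1 had the largest tissue difference of the 42 genes. This enzyme, which opens the use of the ketone body 3-hydroxybutyrate, stood at 198, 179, 289.8, 172 and 249 CPM in LV and at 10.2, 19.5, 14.6, 12.04 and 33.4 CPM in SkM. Oxct1, the transferase that activates acetoacetate, stood at 1255, 1126, 1270.0, 976 and 1493 CPM in LV and at 476, 407, 505, 507 and 386 CPM in SkM. LV was above SkM in every library for both, with log2 fold changes of 3.70 (SE 0.25, adjusted p = 2.04e-05 from edgeR) for Bdh1 and 1.42 (SE 0.18, adjusted p = 0.000377) for Oxct1. Of Oxct1's exon length, 12.1% is shared with a second gene. Acat1, the mitochondrial thiolase that completes the pathway, was higher by 0.88.

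Both thioesterases, which release fatty acids from coenzyme A, were higher in LV. Acot2 stood at 77.02, 63.4, 79.4, 72.3 and 76.5 CPM in LV and at 9.92, 13.6, 21.3, 21.01 and 12.9 CPM in SkM. Acot13 stood at 100.1, 80.3, 108, 125 and 114 CPM in LV and at 32.4, 52.7, 36.2, 40.99 and 36.3 CPM in SkM. Neither gene overlapped between tissues, and the differences were 2.27 (SE 0.19, adjusted p = 4.54e-05 from edgeR) and 1.42 (SE 0.17, adjusted p = 0.00028). Acot2 has a near-identical neighbour, Acot1, so that its counts are uncertain. Acot13 in WT replicate 2 had a within-mouse log2 ratio of LV to SkM of 0.61, against 1.58 to 1.65 in the other 4 mice.

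The uncoupling proteins went in opposite directions. Ucp2, found in many cell types, stood at 72.8, 58.6, 83.3, 84.7 and 61.9 CPM in LV and at 51.2, 9.84, 44.7, 14.3 and 29.2 CPM in SkM. Ucp3, the muscle form, stood at 23.03, 50.6, 43.3, 41.2 and 27.8 CPM in LV and at 119, 168, 65.1, 56.8 and 196 CPM in SkM. With TMM, all LV libraries were above SkM for Ucp2 and below it for Ucp3. With library totals Ucp3 overlapped and did not pass (log2 fold change -0.97, adjusted p = 0.0656 from edgeR), and the WT LV library that holds skeletal muscle transcripts was the highest LV for Ucp3. In SkM, Ucp3 was highest in E0del/+ replicate 3 and WT replicate 2, which held the lowest slow fibre sums, 297.5 and 156.9 CPM. It was lowest in E0del/+ replicate 2, which held the highest, 2675 CPM, and the part of fibre type in these values was not tested. The log2 fold changes were 1.497 (SE 0.34, adjusted p = 0.00646 from edgeR) for Ucp2 and -1.60 (SE 0.37, adjusted p = 0.00708) for Ucp3. All 4 macrophage markers were also higher in LV, with a median log2 fold change of 2.06. WT SkM replicate 2, lowest for Ucp2, held the lowest macrophage sum, 5.24 CPM, while E0del/+ SkM replicate 2, next lowest for Ucp2, held 24.8 CPM. The part of these cells in the difference of Ucp2 was not tested. A ratio within a library does not depend on scaling, and the log2 ratio of Ucp3 to Ucp2 per exon length lay between -0.90 and 0.54 in LV and between 1.30 and 4.85 in SkM. This ratio was chosen after its values were seen, and it was lower in LV in 5 of 5 mice, by a mean of -3.12 ± 1.09 (SD, n = 5). A two-sided exact permutation of signs gave p = 0.0625, the smallest that 5 mice allow. For a ratio chosen in this way, that p is a description only and no test of the direction.

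Among the kinases that inhibit pyruvate dehydrogenase and so spare glucose, the 2 of the 42 genes, Pdk2 and Pdk4, were not higher in LV with TMM, while Pdk1, from the list of further genes, was higher by 0.73 (adjusted p = 0.00935 from edgeR) and Pdk3, at 0.72, did not pass. Pdk2 stood at 712, 817, 752, 558 and 854 CPM in LV and at 901, 1220.0, 932, 1084 and 1109 CPM in SkM. Pdk4, which is induced by fasting, stood at 116, 221, 172, 107 and 225 CPM in LV and at 179, 228, 99.96, 124 and 584 CPM in SkM. With TMM the tissues did not overlap for Pdk2, and for Pdk4 they did, with the highest value in E0del/+ SkM replicate 3, which also held the highest white adipocyte sum, 1502 CPM. The next highest SkM value of Pdk4, in WT replicate 2, stood beside the lowest white adipocyte sum, 12.5 CPM. These libraries held the lowest slow fibre sums, 297.5 and 156.9 CPM, against 1279 to 2675 CPM in the other SkM libraries. The part of adipocytes or fibre type in the Pdk4 values was not tested. Pdk2 was lower in LV with TMM (log2 fold change -0.51, SE 0.16, adjusted p = 0.027 from edgeR) and did not pass without E0del/+ replicate 1, without E0del/+ replicate 3 or without WT replicate 1, where its log2 fold changes were -0.57, -0.55 and -0.62, and the sign turned to 0.11 with library totals. The Pdk4 value of -0.30 (SE 0.28) did not pass (adjusted p = 0.386 from edgeR).

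**Figure D3:**
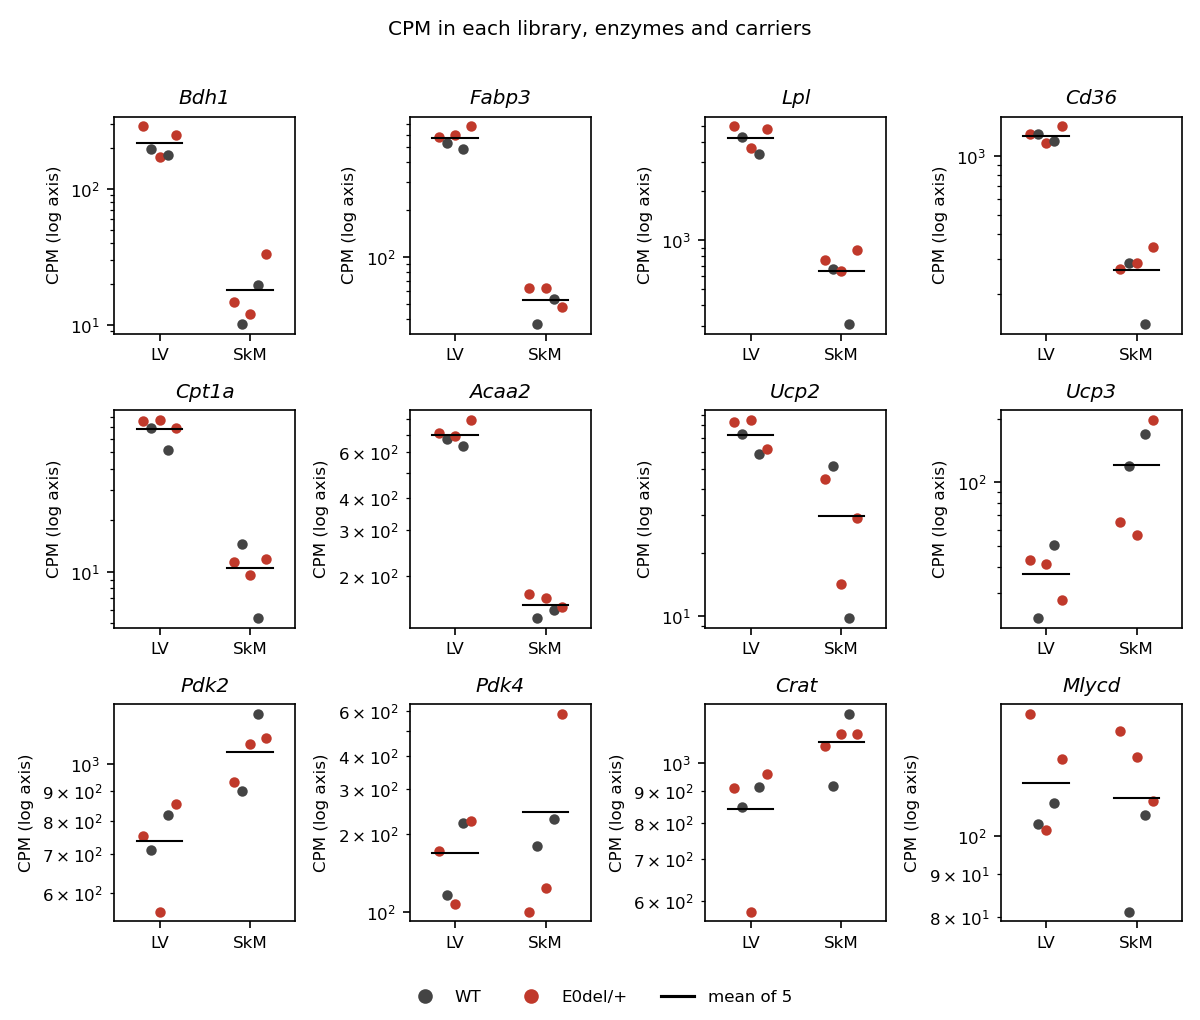
CPM of 12 genes (vertical log axes) in the 5 LV and 5 SkM libraries, 1 point per library, WT in grey and E0del/+ in red, with a line at the mean of 5. Bdh1 and Fabp3 are separated most widely, Ucp2 and Ucp3 go in opposite directions, and Pdk4, Crat and Mlycd overlap between the tissues.

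Among the regulators, 5 of 7 were higher in LV, 1 was lower and 1 did not pass. Ppara, the PPAR most tied to fatty acid oxidation, stood at 120.3, 102, 113, 81.4 and 125 CPM in LV and at 32.4, 10.95, 36.2, 28.01 and 26.1 CPM in SkM. Ppard, a second PPAR, stood at 45.04, 44.8, 45.1, 39.7 and 50.5 CPM in LV and at 59.7, 60.6, 63.9, 64.99 and 57.3 CPM in SkM. With TMM, Ppara was higher in every LV library and Ppard lower, by 2.09 (SE 0.24, adjusted p = 0.000227 from edgeR) and -0.45 (SE 0.10, adjusted p = 0.00646), and the sign of Ppard turned to 0.18 with library totals. Per exon length, the log2 ratio of Ppara to Ppard ran from -0.19 to 0.19 in LV, and Ppara was below Ppard in all SkM libraries, with log2 ratios from -3.70 to -2.05.

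Ppargc1a, which encodes PGC-1α, stood at 99.996, 92.9, 102, 72.2 and 99.4 CPM in LV and at 45.3, 55.1, 50.5, 53.04 and 57.5 CPM in SkM. Ppargc1b, which encodes PGC-1β, stood at 46.7, 40.7, 47.4, 41.4 and 40.5 CPM in LV and at 32.1, 22.9, 24.4, 28.7 and 25.8 CPM in SkM. Both coactivators were higher in all LV libraries, by 0.83 (SE 0.12, adjusted p = 0.000688 from edgeR) and 0.70 (SE 0.10, adjusted p = 0.000771). The estrogen-related receptors differed from each other. Esrra stood at 128, 114, 141, 113 and 126 CPM in LV and at 102, 159, 101, 92.9 and 126 CPM in SkM. Esrrb stood at 35.2, 27.4, 31.5, 21.6 and 41.9 CPM in LV and at 6.51, 3.02, 7.93, 7.86 and 5.47 CPM in SkM. Esrrg stood at 62.9, 57.4, 61.1, 35.6 and 75.8 CPM in LV and at 23.1, 18.01, 22.6, 26.5 and 28.8 CPM in SkM. With TMM, Esrra overlapped between the tissues, and Esrrb and Esrrg did not. The log2 fold changes were 0.12 (SE 0.15, adjusted p = 0.498 from edgeR) for Esrra, 2.38 (SE 0.25, adjusted p = 0.000157) for Esrrb and 1.28 (SE 0.18, adjusted p = 0.000631) for Esrrg. With library totals Esrra passed as higher in LV, at 0.75, beside a median of 0.68 over all genes. Per exon length, Esrra was the most abundant of the 3 receptors in every library, with median levels of 70.6 RPKM in LV and 40.2 RPKM in SkM, against 13.5 and 3.66 RPKM for Esrrg and 8.38 and 1.25 RPKM for Esrrb.

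**Figure D4:**
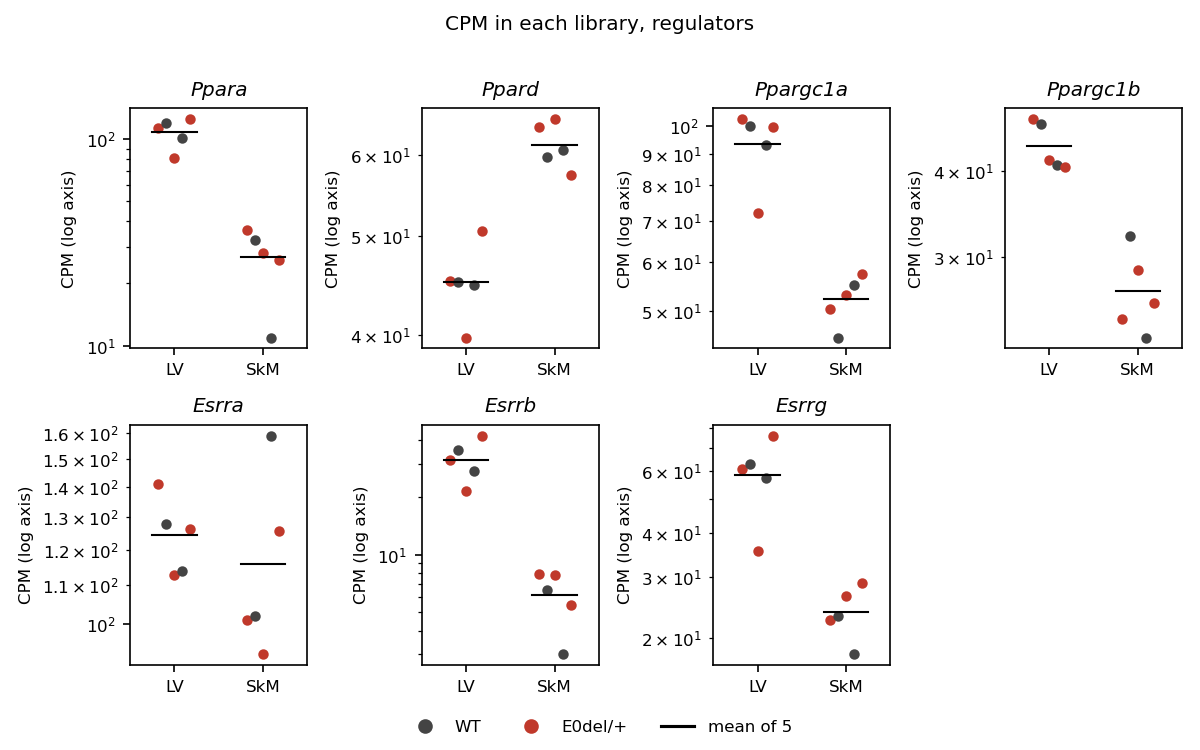
CPM of 7 regulators (vertical log axes) in the 5 LV and 5 SkM libraries, 1 point per library, WT in grey and E0del/+ in red, with a line at the mean of 5. Ppara, Esrrb and Esrrg lie higher in LV in every library, Esrra overlaps between the tissues, and Ppard lies lower in LV with TMM scaling, a direction that turns with library totals.

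The order of the genes within each tissue, compared per exon length, also changed. In LV the highest median levels were those of Lpl (1341 RPKM), Fabp3 (1119 RPKM), Hadhb (793 RPKM) and Acaa2 (580.4 RPKM), and Pdk2 and Crat ranked 11 and 17 of 42. In SkM the highest was Pdk2 (374 RPKM), then Crat (198 RPKM), Lpl (146 RPKM) and Hadhb (130.2 RPKM), and Fabp3 ranked 15. The LV ranges of Lpl (959 to 1515 RPKM) and Fabp3 (883 to 1307 RPKM) overlapped, as did those of Lpl (54.7 to 172 RPKM) and Hadhb (112 to 147 RPKM) in SkM, while Pdk2 (351 to 391 RPKM) and Crat (185 to 206 RPKM) lay apart from each other in SkM.

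The promoters of the 42 genes were searched for known receptor motifs in RefSeq windows of 300 bases (GRCm38.p6), 250 before to 50 after the start, on both strands. Windows were matched for 34 of 42 genes, and those of Lpl, Cpt1b, Crat, Acaa2, Decr1, Acat1, Acot13 and Ppargc1b were not. The ERR element TCAAGGTCA was in 0 of 34 and in 0.466% of all 27025 genes with a window, its form with any second base, TNAAGGTCA, which was added after the other searches had given 0, in 0 and 1.43%, and the direct repeat AGGTCANAGGTCA in 0 and 0.048%. The half-site AGGTCA, which is contained in each of these, was in 6 of 34 genes (17.6%), Acadm, Acadvl, Cd36, Cpt1a, Echs1 and Ucp3, and in 18.1% of all genes. The 250 bases before the start are shown for 2 genes higher in LV and for Ucp3, which was lower, chosen after the matches were seen, because the same letters occur in windows of genes with opposite directions. The share among the 34 is close to that of all genes, and a match is a description only. Capitals mark the half-site on either strand. The bases shown lie at chr19:3323051-3323300 on the plus strand (Cpt1a), chr11:70015429-70015678 on the minus strand (Acadvl) and chr7:100472741-100472990 on the plus strand (Ucp3).

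Cpt1a: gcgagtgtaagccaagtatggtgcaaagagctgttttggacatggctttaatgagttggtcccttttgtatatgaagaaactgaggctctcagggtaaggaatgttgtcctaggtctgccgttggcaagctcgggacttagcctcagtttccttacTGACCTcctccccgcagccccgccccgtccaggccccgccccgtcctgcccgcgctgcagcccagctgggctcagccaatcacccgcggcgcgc
Acadvl: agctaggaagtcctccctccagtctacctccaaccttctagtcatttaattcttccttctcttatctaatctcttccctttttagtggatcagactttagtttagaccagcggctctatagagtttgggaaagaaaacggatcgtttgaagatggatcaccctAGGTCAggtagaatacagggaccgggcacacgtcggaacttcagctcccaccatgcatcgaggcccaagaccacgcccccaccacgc
Ucp3: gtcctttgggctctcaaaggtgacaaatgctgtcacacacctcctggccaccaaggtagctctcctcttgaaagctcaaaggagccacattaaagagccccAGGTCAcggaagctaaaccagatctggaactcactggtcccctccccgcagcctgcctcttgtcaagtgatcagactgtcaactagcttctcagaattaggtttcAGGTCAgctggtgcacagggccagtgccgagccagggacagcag

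Other genes of the pathway were taken as a second list. Of 83 on it, 81 were tested, 30 were higher in LV, 15 lower and 36 did not pass, where 32.1% of all genes were higher and 27.7% lower, with a median log2 fold change of 0.10. With library totals the split was 54 higher and 9 lower, where 8154 of all 14327 genes tested were higher and 1706 lower. Among 9 further uptake genes tested, 5 were higher, led by Gpihbp1 (1.57), the endothelial anchor of lipoprotein lipase, and Fabp5 (1.37). Among 10 further synthetases and malonyl-CoA genes, 4 were higher and 3 lower, with Acss1, a mitochondrial acetyl-CoA synthetase, at 3.04 and Acsl3 at -2.34. Of 11 further dehydrogenases and mitochondrial enzymes, 6 were higher and 1 lower, led by Acot1 (2.84), uncertain as the neighbour of Acot2, and Acot7 (1.35). Acot1 was also low, at 5.13 to 8.30 CPM in LV and 0.0 to 5.45 CPM in SkM, and overlapped between the tissues. Of 12 genes of peroxisomal oxidation, 3 were higher and 3 lower, among them Decr2 at 1.54 and the fatty acyl transporter Abcd2 at -3.85. Of 3 further ketone genes tested, Slc16a1, a carrier of ketone bodies and lactate, was higher by 1.99. In the triglyceride store, 4 of 12 were higher and 1 lower, with Plin5, a lipid droplet protein, at 2.57 and Dgat2 at 2.46. Dgat2 ran from 13.1 to 160.5 CPM in SkM, lowest in WT replicate 2 and highest in E0del/+ replicate 3, the libraries with the lowest and highest white adipocyte sums, and the part of adipocytes in this was not tested. Of 8 further pyruvate dehydrogenase genes, 4 were higher and 1 lower, with the phosphatase genes Pdp2 at 1.77 and Pdp1 at -1.48. Of 16 further regulators, 2 were higher and 6 lower, led by Rxra, the partner of PPARs, at -1.88 and Prkaa2, a catalytic subunit of AMP-activated kinase, at -1.78. The genes named in this paragraph kept their direction with library totals.

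The comparison of E0del/+ with WT asks whether loss of 1 copy of E0 goes with a change of these genes in either muscle. Ttn itself stood at 6264, 8073, 6285, 3962 and 5677 CPM in LV and at 27344, 21997, 23550.0, 24168 and 17029 CPM in SkM. The genotypes overlapped in both tissues, with log2 differences of -0.45 in LV (p = 0.3) and -0.20 in SkM (p = 0.6) by a two-sided exact permutation of the genotypes, where 3 mice against 2 cannot reach a p below 0.1. As single mice were left out the difference ran from -0.63 to -0.25 in LV, with -0.27 without WT replicate 2, whose LV library holds skeletal muscle transcripts, and from -0.36 to -0.04 in SkM. For these mice the study reports that the deleted Ttn allele was expressed less than the intact one in both tissues of E0del/+. The summed counts used here do not separate the alleles.

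In LV, 0 of 42 genes passed the threshold between E0del/+ and WT, as did 0.0% of the 13420 genes tested with edgeR. At an unadjusted p under 0.05 there was 1 of the 42 and 564 of all genes (4.2%). DESeq2's Wald test called 12 genes, of which 0 were among the 42 and 7 were fast fibre markers, a fit with the batch as a block called 5, of which 0 were among the 42 4 are on chromosome Y and 1 is Mstn, and leaving out WT replicate 1, so that WT was the library with skeletal muscle transcripts alone, called 578, with 0 of the 42 and all 9 fast fibre markers. The median log2 fold change was 0.06 over the 42 genes and -0.01 over all. Without WT replicate 2 edgeR called 0, 104 of all genes and 2 of the 42 were at an unadjusted p under 0.05, and the median of the 42 genes was 0.03. As single mice were left out the median ran from 0.02, without E0del/+ replicate 3, to 0.19, without E0del/+ replicate 2, when 40 of 42 and 6386 of 13276 genes lay above 0. With all mice, 28 of 42 and 6477 of 13420 genes lay above 0. A block for batch gave a median of 0.0043, with 22 of 42 and 6508 of 13420 genes above 0. Batch 3 holds no WT mouse, so that fit compares the genotypes within batches 1 and 2 only. In batch 2 Xist was low in the WT mouse and high in the E0del/+ mouse. The 3 genes with the lowest unadjusted p were Cpt1b, Acot13 and Etfb, and as they were chosen by p, their values are a description only. Cpt1b, whose values are given with its shared exons, was higher in all 3 E0del/+ LVs, at 4.34 to 4.73 CPM, than in the 2 WT LVs, at 2.18 and 2.49 CPM. Its log2 fold change was 0.96 (SE 0.28, adjusted p = 0.997 from edgeR), and it rests on 32 and 36 counts in WT. Acot13 had a log2 fold change of 0.35 and Etfb of 0.36 (both adjusted p = 0.997 from edgeR), and WT replicate 2 was the lowest LV library for each. Without that mouse the values were 1.06 for Cpt1b, 0.21 for Acot13 and 0.22 for Etfb.

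In SkM, 0 of 42 genes passed, as did 0.0% of the 13154 genes tested with edgeR, and DESeq2's Wald test also called 0, with 151 genes at an unadjusted p under 0.05. With the batch as a block, 1 gene was called, Eif2s3y on chromosome Y, and 0 of the 42. At an unadjusted p under 0.05 there were 3 of the 42 and 114 of all genes (0.867%), and with the batch as a block 9 of the 42 and 596 of all. As in LV, the block leaves only batches 1 and 2 to compare the genotypes. The median was 0.17 over the 42 genes and -0.01 over all genes, with 36 of 42 and 6473 of 13154 genes above 0. The 3 genes were Acadl, Slc25a20 and Mlycd. Acadl stood at 134 and 128 CPM in WT and at 196, 197 and 161 CPM in E0del/+. Slc25a20 stood at 66.7 and 63.4 CPM in WT and at 88.5, 94.0 and 78.2 CPM in E0del/+. Mlycd stood at 81.2 and 106 CPM in WT and at 133, 124 and 110.0 CPM in E0del/+. In each of the 3 genes all E0del/+ values were above both WT values, with log2 fold changes of 0.52 (SE 0.15), 0.44 (SE 0.14) and 0.42 (SE 0.16), none past the threshold (adjusted p = 1.0 from edgeR). The genes were chosen by their low p, so this separation is a description only. The share of all genes separated in this way was not counted. WT SkM replicate 2, with the lowest slow fibre, endothelial and white adipocyte sums, was the lowest SkM library for 15 of the 42 genes, Acadl and Slc25a20 among them, and the highest for 5. WT SkM replicate 1, which held Y-linked transcripts beside Xist, was the lowest for 21 and the highest for 4. How often these libraries were lowest over all genes was not counted. Without WT replicate 2 the median of the 42 genes was 0.19, with 2 of the 42 and 294 of 13704 genes at an unadjusted p under 0.05, and the number at that p was between 0 and 12 as single mice were left out. The 12 were found without WT replicate 1, when 1597 of all genes were at that p.

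The difference of the tissue effect between genotypes was tested over all 10 libraries. It passed for 0 of 42 genes, as for 0.0% of the 14327 genes tested with edgeR, and for 0 with DESeq2's Wald test. At an unadjusted p under 0.05 there were 0 of the 42 and 238 of all genes (1.66%), and as single mice were left out 0 to 3 of the 42, with 3 of the 42 and 308 of all genes without E0del/+ replicate 3 and 3 and 1533 without WT replicate 1. The median was -0.07 over the 42 genes and -0.02 over all, and over the 42 it ran from -0.21, without WT replicate 2, to 0.04, without E0del/+ replicate 2, as single mice were left out. Leaving out WT replicate 1 called 155 genes, with 0 of the 42 and all 9 fast fibre markers.

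**Figure D5:**
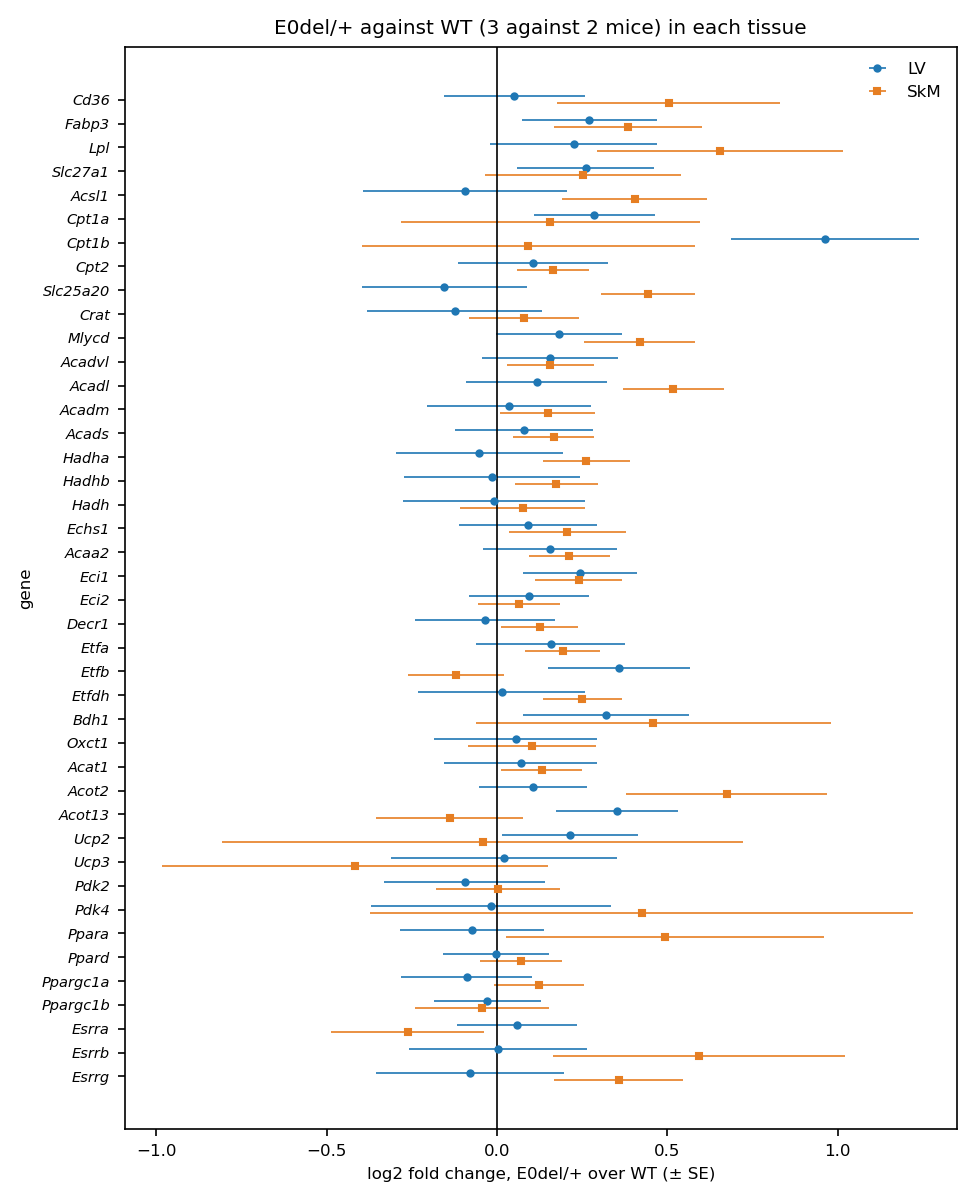
Log2 fold change of E0del/+ over WT with its SE (horizontal axis) for 42 genes in LV (blue circles) and SkM (orange squares), 3 against 2 mice. None passes the threshold in either tissue, and Cpt1b in LV, at 0.96, lies farthest to the right.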

How the data were processed

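The authors deposited, per library, raw counts of reads per gene and RPKM with exon coordinates and summed exon length. STAR, DESeq2 and mm10 are named in the submitters' processing notes, with no role or version. The deposited RPKM are the count over exon length and over the summed gene counts of the library, to a relative difference of 2.7e-14, and were used for levels per exon length, for ratios of 2 genes within a library and for the order of LV libraries in beta-oxidation genes. The libraries were made from poly(A) RNA with Nextera XT, which keeps no strand.

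Counts were tested in R 4.3.3 with edgeR 4.0.16 (filterByExpr, TMM, quasi-likelihood test), with the mouse as a block for LV against SkM and for the interaction, and without a block for genotype. DESeq2 1.42.0 was an alternative, as were other scalings and filters, blocks by batch or by Xist over 100 CPM, 1 fit over all 10 libraries and leaving out each mouse. The fits were also tried on simulated data, and no result given here rests on that. The tissues of a mouse are paired by animal, with correlations of deviations from group means from -0.101 to 0.0918. WT and E0del/+ of a batch are paired by the labels, with correlations of 0.031 and -0.118 in LV and 0.518 and 0.31 in SkM.

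Members and lists were chosen with earlier results of these data known. By rule, CPM of every library is given for the 2 genes with the largest tissue difference in each role, for Cpt1a, Cpt1b and the regulators, and the 3 genes of lowest p for genotype, and log2 fold changes are given for up to 2 genes of each further list, those with the largest difference among the genes past the threshold. Outside this rule, log2 fold changes are also given for Pdk1 and Pdk3, of which Pdk3 did not pass. Some choices followed the values: the search for TNAAGGTCA, the limit of 90% for shared exons, the ratio of Ucp3 to Ucp2, the promoters shown and the use of Dixon's test on the 5 within-mouse ratios. Perm1, Adgre1 and Hbb-bs were matched to older symbols by RefSeq, and Hbb-bt was not matched. The other marker lists were macrophages, with 53.0 to 77.4 CPM in LV and 5.24 to 26.3 CPM in SkM, brown adipocytes, with 12.2 to 15.0 CPM and 0.598 to 18.8 CPM, and blood, with 102 to 130.4 CPM and 18.4 to 146 CPM.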

Additional observations from a re-analysis of the deposited data

Results flagged for a closer look

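By Dixon's test, which was applied to the 5 within-mouse ratios after the values were seen, the within-mouse log2 ratio of LV to SkM was far from the other 4 for 5 of 42 genes, where chance gives such a value in about 1 in 20 groups. It was so for 7.77% of the 13250 genes tested with counts in all 10 libraries, in WT replicate 2 for 3.63% and in E0del/+ replicate 2 for 3.0%. In WT replicate 2 the ratio was 3.07 for Cd36 (2.03 to 2.27 in the others), 3.45 for Lpl (2.47 to 2.72) and 0.61 for Acot13 (1.58 to 1.65). This mouse's LV library held 33950 CPM of fast fibre markers and its SkM library the lowest white adipocyte and endothelial sums, 12.5 and 166.5 CPM, and the part of either in these ratios was not tested. In E0del/+ replicate 2 the ratio was 0.96 for Hadh (1.32 to 1.45 in the others) and 0.43 for Esrrg (1.40 to 1.67), and this mouse's LV library had the largest TMM factor, 1.40.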

How the results depend on the processing

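In LV against SkM, 35 of the 42 genes were higher under each alternative but library totals, with 37, and leaving out WT replicate 1, with 34. The genes that were lower numbered 3 with TMM, 4 with DESeq2's Wald test, 0 with library totals and 2 to 3 as single mice were left out. With library totals the sign turned for Crat (0.25), Pdk2 (0.11), Pdk4 (0.33) and Ppard (0.18), and the summed CPM of the 42 genes in LV over SkM rose from a mean ratio of 2.48 to 3.81, where the factors of TMM, 1.16 to 1.40 in LV and 0.721 to 0.885 in SkM, are left out. Mlycd ran from -0.0656, without WT replicate 1, to 0.1592, without E0del/+ replicate 2, and the cause was not tested. For E0del/+ against WT in LV, 12 genes passed with DESeq2's Wald test, 5 with the replicate block and 0 to 578 as single mice were left out. In SkM 1 gene passed with the replicate block, and in the interaction 0 to 155 as single mice were left out, and the cause of these changes was not tested. In each of these, 0 of the 42 genes were among the calls. The replicate block changed no call of the 42 genes in E0del/+ against WT, and leaving out the mouse block in LV against SkM changed none. The ratio of Ucp3 to Ucp2 ran from -3.53 to -2.83 as single mice were left out. Leaving out a WT mouse leaves 1 WT library in a tissue, which is assumed to vary like the others. With 2 WT mice, genotype differences may not be detectable, and not only small ones. The 9 fast fibre markers, high in 1 WT LV library, had a median log2 fold change of -6.85 in LV, and edgeR called 0 of them. Counts of 15 to 82 limit Cpt1b.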

Other observations

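Of the genes in the files, 437 share at least 90% of their exon length with another gene, and 413 of these had 0 counts in all 10 libraries, against 15.5% of the 20598 genes that share none.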
